A study of Mus musculus with 60 samples.

Results

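Expression of 7 genes of the MHC class II pathway, H2-Aa, H2-Ab1, H2-Eb1, H2-DMa, H2-DMb1, Cd74 and Ciita, was examined in the lung, liver and forestomach of mice exposed to benzo(ghi)perylene (BghiP), a polycyclic aromatic hydrocarbon. The genes were found through the RefSeq accession that the scanner files give for each probe, and 8 of the 55681 probes on the array belong to them, H2-Ab1 having 2 probes and each of the others 1. Adult male Muta™Mouse, a strain that carries a bacterial lacZ reporter transgene in every group, were about 10 weeks old and received BghiP in olive oil by oral gavage for 28 days. Vehicle controls (D0) received olive oil alone, and the exposed groups received 25 (D3), 12.5 (D2) or 6.25 (D1) mg/kg-bw/day. Tissues were taken 72 h after the last gavage, and RNA came from random sections of each organ. The same 20 mice, 5 per dose, gave all 3 tissues, so 60 two-color arrays were available, each with tissue RNA in Cy5 and one commercial pool of mouse cell line RNA in Cy3.

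MHC class II molecules display peptides from engulfed or recycled proteins to CD4 T cells, and they are made mainly by dendritic cells, macrophages and B cells. H2-Aa and H2-Ab1 encode the alpha and beta chains of the I-A molecule and H2-Eb1 the beta chain of I-E. Cd74, the invariant chain, occupies the peptide groove until proteases cut it down, H2-DMa and H2-DMb1 form the H2-DM exchange factor that removes the remaining fragment, and Ciita is the transactivator that switches these genes on together. The lung holds many alveolar macrophages and dendritic cells, the liver its resident Kupffer cells, and the forestomach is lined by squamous epithelium.

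Values are log2 ratios of Cy5 to Cy3 after loess normalization, so 0 is the level of the reference RNA as that probe reads it, and the level of one probe cannot be set against that of another. The share of all probes well above background in Cy5 ran from 34.9 to 58.6% on lung arrays, from 36.3 to 48.3% on liver arrays and from 21.3 to 53.3% on forestomach arrays, and no member spot was saturated. Lung marker genes averaged 6.91 to 7.63 on lung arrays and at most 0.38 on liver arrays, and squamous epithelium genes averaged 3.45 to 4.83 on forestomach arrays. On lung arrays squamous genes reached 3.69, and liver genes reached 4.85 on lung and 5.21 on forestomach arrays. Lung genes reached 5.88 on forestomach arrays. In all, 9 arrays stood more than 2 log2 units above the D0 mean of their tissue in markers of another tissue. The lung array of D0 mouse 1 was higher by 4.79 in skeletal muscle and 3.22 in squamous genes, that of D3 mouse 20 by 2.72 in liver and 2.43 in fat cell genes, and those of D1 mouse 8 and D2 mouse 14 by 3.34 and 2.83 in fat cell genes. The forestomach array of D0 mouse 5 was higher by 3.31 in fat cell genes and that of D0 mouse 2 by 3.78 in lung genes, and those of mice 10, 15 and 19 (D1, D2 and D3) by 2.55, 2.62 and 2.10 in liver genes. Tissue RNA is a mixture of cells, so fewer cells of a type and less RNA per cell cannot be told apart.

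Ciita could not be followed. Its tissue signal was well above background on 0 lung, 1 liver and 2 forestomach arrays of 20 each, its ratios lay between −0.40 and 0.31 on all arrays that gave one, and it was not tested. The remaining 7 probes of 6 genes passed the filter of at least 5 of 20 arrays well above background in every tissue, and the counts below refer to these 7 probes.

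Lung carried the highest level of every tested class II probe. In vehicle controls all 7 probes were called higher in lung than in liver and all 7 higher in lung than in forestomach, a call being a Benjamini-Hochberg adjusted p of 0.05 or less in limma with a change of at least 1.5-fold. Of all 33255 probes tested between tissues, 25.4% were called higher in lung than in liver and 18.8% higher in lung than in forestomach. Within single mice, all doses included, the lung exceeded the liver in 20 of 20 mice for 6 probes and in 19 of 20 for the second H2-Ab1 probe. It exceeded the forestomach in 20 of 20 mice for every probe.

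**Figure D1:**
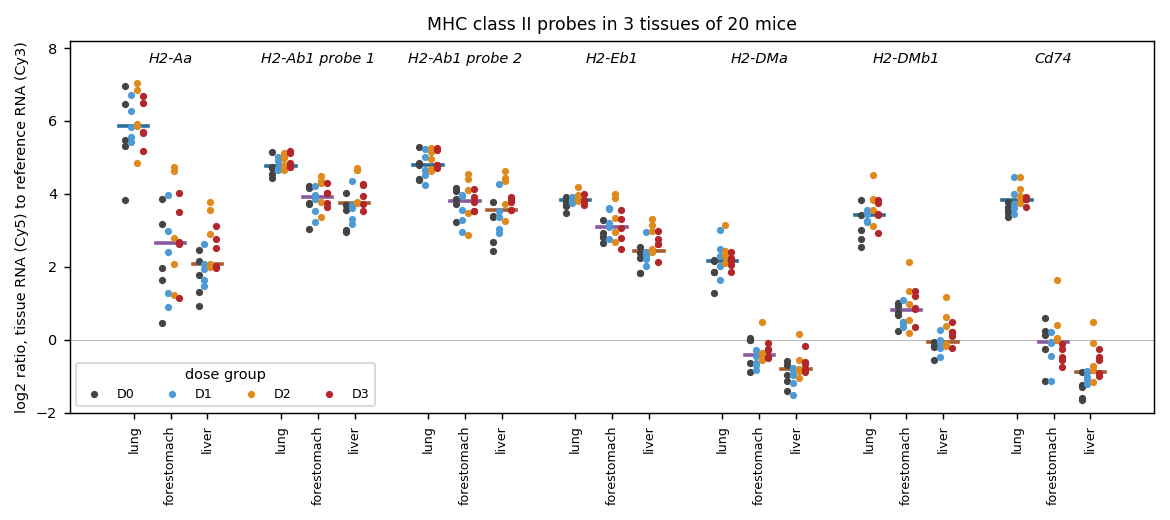
Log2 ratio of tissue RNA to reference RNA (y axis) for the 7 tested probes in each tissue (x axis). Points are single mice colored by dose group, 5 per group, and the thick line is the median of 20 mice. Lung lies highest for each probe, by the widest margin for Cd74 and H2-Aa.

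Cd74 was far higher in lung than in the other organs. In D0 mice 1 to 5 the lung ratios were 3.37, 3.79, 3.64, 3.47 and 3.57, the forestomach ratios 0.13, 0.59, 0.24, −1.14 and −0.27, and the liver ratios −0.88, −1.23, −1.59, −1.30 and −1.66. Every lung value lay far above every value of the other organs, whereas the forestomach value of mouse 4 fell within the liver range. The lung exceeded the liver by 4.90 log2 units (SE 0.26, 29.8-fold, adjusted p = 5.1e-23) and the forestomach by 3.66 (SE 0.26, 12.6-fold, adjusted p = 3.8e-17). The forestomach in turn exceeded the liver by 1.24 (2.36-fold, adjusted p = 5.9e-05).

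The exchange factor showed the same order. H2-DMb1 in D0 mice read 2.75, 3.02, 2.55, 3.42 and 3.83 in lung, 0.77, 1.00, 0.24, 0.92 and 0.67 in forestomach and −0.07, −0.17, −0.18, −0.21 and −0.57 in liver, 3 sets of values that did not overlap. The differences were 3.35 between lung and liver (10.2-fold), 2.39 between lung and forestomach (5.26-fold) and 0.96 between forestomach and liver (1.94-fold, adjusted p = 0.0011). H2-DMa read 1.87, 1.86, 1.29, 2.15 and 2.18 in D0 lungs and −0.69, −0.58, −1.42, −0.97 and −1.14 in D0 livers. Its difference between lung and liver was 2.83 (7.10-fold) and that between lung and forestomach 2.17 (4.49-fold). Only 14 of 20 forestomach arrays had an H2-DMa tissue signal well above background, so its forestomach level is known less well.

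The peptide-binding chains were above the reference in all 3 tissues. H2-Aa, the alpha chain of I-A, read 5.32, 5.47, 3.84, 6.48 and 6.96 in D0 lungs, 1.96, 1.65, 0.47, 3.19 and 3.86 in D0 forestomachs and 2.46, 0.93, 1.78, 2.15 and 1.31 in D0 livers. The lowest lung value, that of mouse 3, fell just short of the highest forestomach value, that of mouse 5. The lung exceeded the liver by 3.89 (SE 0.59, 14.8-fold, adjusted p = 1.1e-07) and the forestomach by 3.39 (SE 0.59, 10.5-fold, adjusted p = 3.5e-06). In the processed signals these differences were smaller, 2.18 (adjusted p = 0.0016) and 1.49 (adjusted p = 0.037). Between forestomach and liver the difference of 0.50 did not pass the test (95% interval −0.70 to 1.69, adjusted p = 0.50).

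The beta chains differed less between tissues on the ratio scale. Over all 20 mice the first H2-Ab1 probe ran from 4.42 to 5.16 in lung (median 4.77), from 3.03 to 4.49 in forestomach (median 3.91) and from 2.96 to 4.70 in liver (median 3.74). The second H2-Ab1 probe had medians of 4.79, 3.81 and 3.56, and the 2 probes had a correlation of 0.974 over 60 arrays with a largest gap of 0.52. H2-Eb1 had medians of 3.82 in lung, 3.08 in forestomach and 2.44 in liver, and none of its 20 lung values overlapped its liver values. In D0 the lung exceeded the liver by 1.27, 1.61 and 1.54 for the H2-Ab1 probes and H2-Eb1 (2.41-, 3.06- and 2.90-fold) and the forestomach by 0.94, 0.94 and 0.80. In the processed signals of the scanner program the last 3 differences were 0.36, 0.39 and 0.23 and were not called, leaving 4 probes called between lung and forestomach, whereas the Cy5 signal alone gave 3.06, 2.84 and 2.68.

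Forestomach stood above liver for 5 of the 7 probes, while 21% of all probes were called higher in forestomach. Besides Cd74 and H2-DMb1, these were H2-Eb1 (1.67-fold, adjusted p = 0.0013), the second H2-Ab1 probe (1.60-fold, adjusted p = 0.026) and H2-DMa (1.58-fold, adjusted p = 0.0093). H2-Aa and the first H2-Ab1 probe (1.26-fold, adjusted p = 0.21) were not called, and in the limma estimates all 7 were higher in forestomach. The second H2-Ab1 probe was higher in forestomach in only 10 of 20 mice. Leaving out mouse 2, whose forestomach array was high in lung genes, lowered the count from 5 to 3, H2-Eb1 then falling to 0.56 and the second H2-Ab1 probe to 0.50. Averaged over all 4 dose groups 3 probes were called, with H2-DMa at 0.45 and the second H2-Ab1 probe at 0.16. In that fit 39% of all probes were called in either direction.

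The reference channel did not stay level at the beta chain probes. The Cy3 signal came from the same RNA pool on each array, yet its median log2 value at the first H2-Ab1 probe was 11.1 on lung arrays, 8.7 on forestomach arrays and 8.0 on liver arrays. H2-Eb1 behaved alike with 11.2, 9.1 and 8.1, while Cd74 stayed between 11.9 and 12.4 and H2-DMb1 between 8.4 and 8.8. Taken from Cy5 alone, the difference between lung and liver in D0 was 4.17 and 4.20 for the H2-Ab1 probes and 4.40 for H2-Eb1, near that of Cd74, 4.64, and of H2-Aa, 3.88. Between forestomach and liver Cy5 alone gave 1.11 for the first H2-Ab1 probe, which was then called, and 0.38 for H2-DMa, which was not. Why the reference signal moved at these probes was not tested. The H2-Aa reference signal was dim, with medians of 6.0, 5.6 and 5.2 in lung, forestomach and liver, and it was well above background on 16, 1 and 1 of 20 arrays, so the H2-Aa ratio divides by a signal near the detection limit outside lung.

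**Figure D2:**
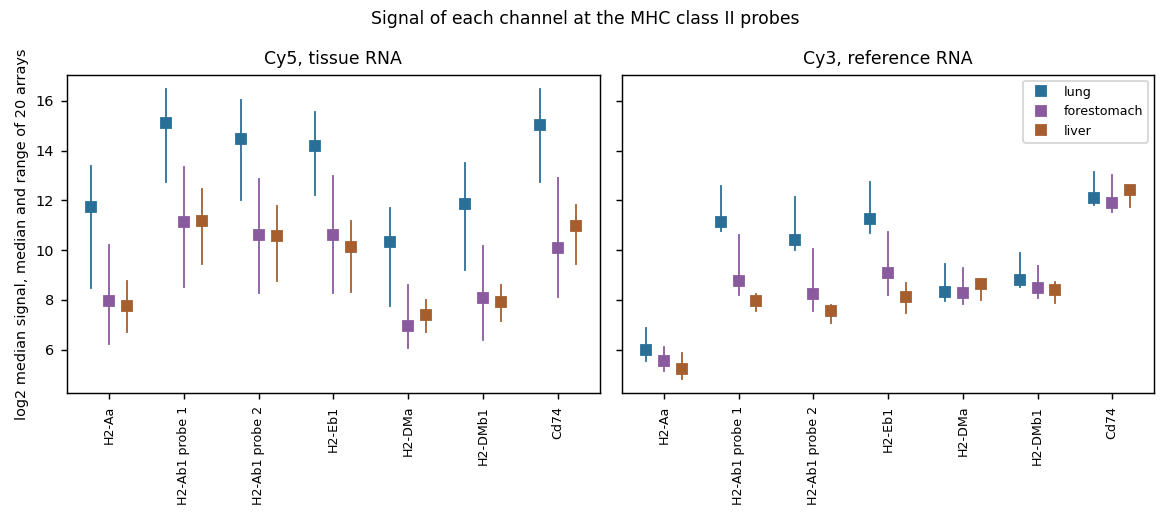
Log2 median signal before normalization in Cy5 (left, tissue RNA) and Cy3 (right, reference RNA) at each tested probe. Squares are medians and lines the range of 20 arrays per tissue. The reference signal of both H2-Ab1 probes and of H2-Eb1 is brightest on lung arrays, and that of Cd74 is nearly level.

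Genes that act with the class II molecules were described next. Of 15 measured companions, 10 were called higher and 2 lower in lung than in liver, and 10 higher and 2 lower in lung than in forestomach. Of all probes, 19% were called lower in lung than in liver, 14.5% lower in lung than in forestomach and 18.2% lower in forestomach than in liver, beside the shares called higher given above. H2-Oa and H2-Ob, which form the inhibitor of H2-DM, were higher in lung by 2.08 and 1.91 against liver and by 1.93 and 2.03 against forestomach. Cathepsin S (Ctss), which trims the invariant chain, was higher by 2.50 and 2.89, and the receptor Cd40 and the activation marker Cd83 by 2.91 and 2.90 against liver. Lysosomal cathepsin L (Ctsl) went the other way, by −1.87 against liver, as did cathepsin B (Ctsb), by −0.72. Ifi30, a lysosomal thiol reductase, was the only companion called higher in forestomach than in liver, by 2.01, and it was lower in lung than in forestomach (−0.79). In forestomach against liver 3 companions were called lower, Ctsl (−1.26), Ctsb (−0.75) and Marchf8 (−0.65), and the median was −0.11. The median companion differed by 1.05 between lung and liver, against 0.06 for all probes.

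The subunits of the RFX complex, which binds class II promoters, were not called between lung and liver. Rfx5, Rfxap and Rfxank differed by 0.02, −0.04 and −0.56. Of 10 regulators, 2 were called higher and 1 lower in lung than in liver, both shares below those of all probes. Irf8, a transcription factor of dendritic cells and B cells, was higher by 2.22 and Nfya, a subunit of NF-Y, by 1.04, while Nfyb was lower (−0.88). Of 13 genes of the interferon gamma pathway, which induces Ciita, 7 were called higher and 4 lower in lung than in liver. Gbp2 and Irf1 were higher by 3.58 and 1.62, whereas Cxcl9 and Irgm1 were lower (−1.54 and −1.39). Of 12 genes of class I presentation, 3 were higher and 5 lower in lung than in liver, 7 were higher in lung than in forestomach, and 8 were lower in forestomach than in liver, where 18.2% of all probes were. B2m, the light chain of class I, was lower in forestomach than in liver (−3.54), as was the immunoproteasome subunit Psmb9 (−2.27).

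Marker genes of the cells that make class II molecules were read from the same arrays. In lung against liver, 9 of 12 B cell genes were called higher and none lower, led by Cd79b of the B cell receptor (4.82) and Ms4a1 (3.17). Of 10 dendritic cell genes, 6 were higher and none lower, with Itgax at 3.93 and the migration receptor Ccr7 at 3.63. Of 10 T cell genes, 6 were higher and 1, Cd4, was lower (−3.33). Macrophage genes split by organ, 4 higher and 7 lower in lung than in liver. Siglecf and Marco of alveolar macrophages were higher by 3.28 and 2.34, and Clec4f, Cd5l and Vsig4 of Kupffer cells were lower (−6.22, −6.18 and −5.71). Between forestomach and liver, 10 of 13 macrophage genes were called lower and none higher, although 5 class II probes were called higher. In the same comparison 3 of 10 dendritic cell genes were higher and 1 lower, with Clec10a at 1.18 and Itgax at 0.77. The part of these cell types in the class II differences was not tested.

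Within lung and forestomach the values of H2-Aa, both H2-Ab1 probes and H2-DMb1 differed by the slide on which an array lay. Lung and forestomach arrays shared slides 1 to 5, each holding 4 mice of each tissue with 1 mouse per dose, and liver arrays lay on slides 6 to 8. Mean H2-Aa ratios on slides 1 to 5 were 5.61, 4.83, 6.57, 5.72 and 6.80 in lung and 2.29, 0.93, 3.60, 2.08 and 4.12 in forestomach. Slide 2 was lowest and slide 5 highest in both tissues, a span of 1.98 in lung and 3.18 in forestomach, while the 3 liver slides spanned 0.29. Both H2-Ab1 probes had the same lowest and highest slide, and H2-DMb1 was lowest on slide 2 and highest on slide 3 in both tissues. Cd74 spanned only 0.38 in lung and 0.28 in forestomach and was highest on slide 2 and lowest on slide 5. H2-DMa spanned 0.45 and 0.44 and was also lowest on slide 5 in both tissues, and H2-Eb1 spanned 0.22 and 0.74 and was lowest on slide 1. The share of all probes well above background was also lowest on slide 2, at 39% in lung and 24.6% in forestomach, and highest on slide 5, at 58.4 and 50.7%. The part of signal brightness in these differences was not tested. For the comparison of tissues, all 7 probes were still called higher in lung than in forestomach with slide as a block. In that fit 35% of all 32018 probes were called in either direction. Each of these tissues had a row of its own on the slides, however, and slide and tissue cannot be told apart for liver.

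**Figure D3:**
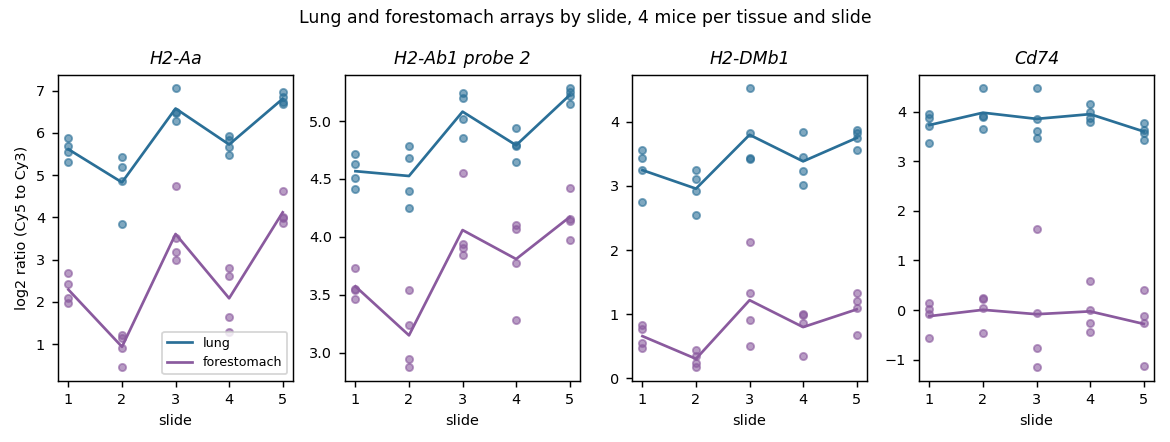
Log2 ratio (y axis) of 4 class II probes on slides 1 to 5 (x axis) in lung and forestomach. Points are single mice, 4 per tissue and slide, and the line joins the slide means. H2-Aa dips on slide 2 and peaks on slide 5 in both tissues, and Cd74 is nearly flat.

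H2-Aa was one of the most variable probes on the array. Its standard deviation around the dose group means was 0.85 in lung, 0.61 in liver and 1.32 in forestomach, above 98.9, 98.9 and 98.1% of tested probes. H2-Eb1 varied little in lung (0.12, above 9.37% of probes) but more in liver (0.35, above 92.5%). In liver all 7 probes had standard deviations above those of at least 92.5% of probes.

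No class II probe passed the threshold for a change with BghiP exposure. In all 9 comparisons of a dose with vehicle controls, none of the 7 probes was called by limma, nor, without a block, was any of the 31022 probes tested in lung, 25893 in liver and 25070 in forestomach (0% in each comparison). Shuffling of residuals also called 0 class II probes. A linear slope on dose called 0 of the 7 in each tissue, against 0.239% of probes in liver and 0% in lung and forestomach. With slide as a block some probes were called, 0.0677% of all at D3 in lung, 0.0927% at D3 in liver and 0% in the other 7 dose comparisons, and for the slope 0.306% in lung, 2.61% in liver and 0% in forestomach, with 0 of the 7 class II probes among them. The D3 change differed between tissues for 0 of the 7 (0% of 33255 probes in each of 3 comparisons). At an unadjusted p under 0.05 the 7 probes counted 0, 4 and 0 at D1, D2 and D3 in lung, where 2.22, 3.4 and 4.81% of all probes passed. In liver they counted 0, 6 and 4, where 3.03, 4.15 and 12.1% passed, and in forestomach 0, 0 and 0, where 9.37, 3.65 and 1.5% passed. For the slope these counts were 0 in lung (4.78%), 6 in liver (14.8%) and 0 in forestomach (2.36%). Each dose lay in the same array column on every slide, so dose and array column cannot be told apart.

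**Figure D4:**
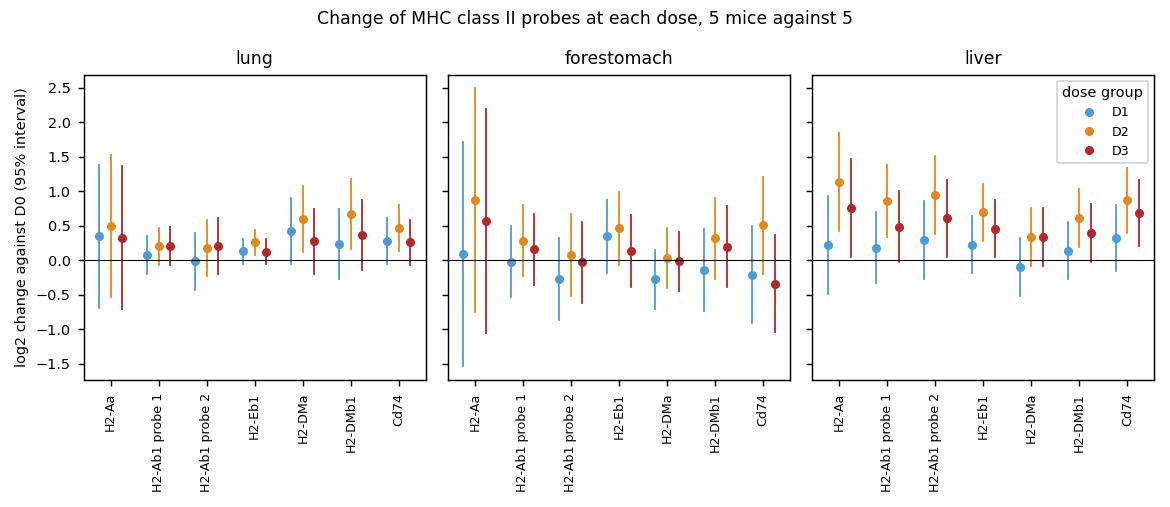
Log2 change of each tested probe against D0 (y axis) at D1, D2 and D3 in each tissue. Points are limma estimates from 5 mice against 5 and lines are 95% intervals. In liver all D2 and D3 estimates lie above 0, none passes the adjusted test, and the forestomach intervals are wide for H2-Aa.

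In liver the estimates were above 0 for all 7 probes at D2 and D3. Cd74 in D2 mice 11 to 15 read −1.17, −0.10, −0.73, 0.50 and −0.82 and in D3 mice 16 to 20 −0.91, −0.48, −1.01, −0.57 and −0.26, against −0.88 to −1.66 in D0. All D2 and D3 mice lay above the D0 mean, but the ranges overlapped D0. The change was 0.87 at D2 (SE 0.23, unadjusted p = 0.0011 and adjusted p = 0.99 in limma) and 0.69 at D3 (SE 0.23, adjusted p = 0.24).

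Liver H2-Aa read 2.00, 3.57, 2.91, 3.77 and 2.08 in D2 mice and 2.01, 2.52, 2.76, 1.97 and 3.12 in D3 mice. All of them were above the D0 mean, and 3 in each group lay above the highest D0 value of 2.46. The change was 1.14 at D2 (95% interval 0.43 to 1.85) and 0.75 at D3 (0.04 to 1.46), both short of the adjusted threshold. At D2 the remaining changes were 0.86 and 0.94 for the H2-Ab1 probes, 0.69 for H2-Eb1, 0.62 for H2-DMb1 and 0.34 for H2-DMa. At D3 they were 0.49, 0.61, 0.46, 0.40 and 0.34. The D2 mean was the highest of the 4 groups for 6 probes, and for H2-DMa D2 and D3 were level. D2 and D3 were not tested against each other, and without mouse 14 the D2 changes of Cd74 and H2-DMa were 0.63 and 0.15, below those at D3.

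Averaged over the 6 genes, with 1 probe per gene, liver stood 0.17 ± 0.26 above the D0 mean at D1, 0.75 ± 0.54 at D2 and 0.52 ± 0.27 at D3 (log2, SD, n = 5 mice each). In the same livers the 12 macrophage genes tested had median changes of 0.18 at D2 and 0.20 at D3, and none was called. B cell genes had a median change of 0.16 at D2 and 0.0075 at D3, and dendritic cell genes −0.0089 and 0.038. Averaged as the class II genes were, macrophage genes had 0.12 and 0.26 at D2 and D3. B cell genes then had 0.16 and 0.10, dendritic cell genes 0.038 and −0.024 and T cell genes 0.12 and 0.0086. Alveolar type 2 cell genes averaged 0.043 and 0.22, and lymphoid organ genes 0.21 and 0.34, with 0.37 already at D1. The 11 companions tested ran at D3 from Ifi30 at 0.34 and Ctss at 0.32 to Cd80 at −0.16 and Marchf1 at −0.19, none called.

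At D2 and D3 the estimated mean shifts of lung and forestomach were below those of liver. In lung the 6 genes averaged 0.25 ± 0.10, 0.45 ± 0.36 and 0.26 ± 0.17 above D0 at D1, D2 and D3, and the D3 value was 0.17 without the arrays of mice 1 and 20. The lung changes at D2 were 0.67 for H2-DMb1, 0.60 for H2-DMa, 0.49 for H2-Aa, 0.47 for Cd74, 0.26 for H2-Eb1 and 0.20 and 0.18 for the H2-Ab1 probes. Without mouse 14 those of H2-Aa and the second H2-Ab1 probe were 0.26 and 0.11, and the D2 average 0.32 ± 0.23. With slide as a block all 7 had an unadjusted p under 0.05 at D2 in lung, when 12.2% of all probes did, and still none was called. At D3 in lung 3 did (15.6% of all probes), and for the slope 2 (14.3%). In forestomach the averages were −0.04 ± 0.28, 0.41 ± 0.67 and 0.12 ± 0.33, and the D2 average was 0.17 ± 0.47 without mouse 14. The forestomach changes at D3 were 0.57 for H2-Aa, 0.20 for H2-DMb1, 0.16 for the first H2-Ab1 probe and 0.13 for H2-Eb1. Those of H2-DMa and Cd74 were −0.01 and −0.34. Slide as a block cut the standard error of the H2-Aa change from 0.77 to 0.24 in forestomach and from 0.49 to 0.19 in lung, while that of Cd74 in forestomach went from 0.33 to 0.36 and that of H2-DMa in lung from 0.23 to 0.22. The D2 counts at an unadjusted p under 0.05 then became 2 in forestomach and 6 in liver, beside 9.43 and 6.84% of all probes. At D3 they were 1 in forestomach (6.41%) and 5 in liver (17.9%), and for the slope 1 (8.28%) and 5 (20.6%).

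Among differences of the D3 change between tissues, Cd74 had the lowest unadjusted p. It stood 0.69 above D0 in liver, 0.26 above D0 in lung and below D0 in forestomach (−0.34), and all 5 D3 mice were above the D0 mean in liver and lung and 0 of 5 in forestomach. The forestomach value depended on single D0 mice. Leaving out mouse 2, whose array was high in lung genes, gave a change of −0.17 with 2 of 5 D3 mice above the mean of the rest, and leaving out mouse 4 gave −0.60. Without all 9 arrays high in markers of another tissue it was −0.09. The difference between forestomach and liver was −1.03 (SE 0.37, adjusted p = 1.00 in limma). It was 1 of the 7 probes with an unadjusted p under 0.05 between forestomach and liver (4.26% of all probes). The corresponding counts were 0 between lung and liver (2.96%) and 0 between lung and forestomach (2.06%). With mouse as a block, since the tissues came from the same animals, the Cd74 difference between forestomach and liver had an SE of 0.28 (unadjusted p = 0.00083, adjusted p = 0.82 in limma) and that between lung and forestomach, 0.60, an unadjusted p of 0.040 (adjusted p = 1.00). The counts were then 1, 1 and 0 for forestomach and liver (5.42%), lung and forestomach (2.47%) and lung and liver (3.55%), and 0% of probes were called.

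One D2 animal stood highest in all 3 organs. The mean of the 6 genes in mouse 14 was above the D0 mean by 0.99 in lung, 1.46 in liver and 1.38 in forestomach, rank 1 of 20 in each tissue. It had the highest value of 20 for all 7 probes in forestomach, 5 in liver and 4 in lung. Its Cd74 ratio in forestomach was 1.63, with 0.59 the next highest of the 20 mice, and its H2-DMb1 ratio was 2.13, with 1.33 next. In the same sections its macrophage genes were above D0 by 0.64, 0.47 and 0.43 in lung, liver and forestomach, its B cell genes by 0.46, 0.30 and −0.31 and its lung fat cell genes by 2.83. The part of these cells in its class II values was not tested. Without mouse 14 none of the 7 probes was called at D2 in any tissue, and the forestomach D2 changes of H2-DMb1 and H2-DMa were 0.04 and −0.15.

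**Figure D5:**
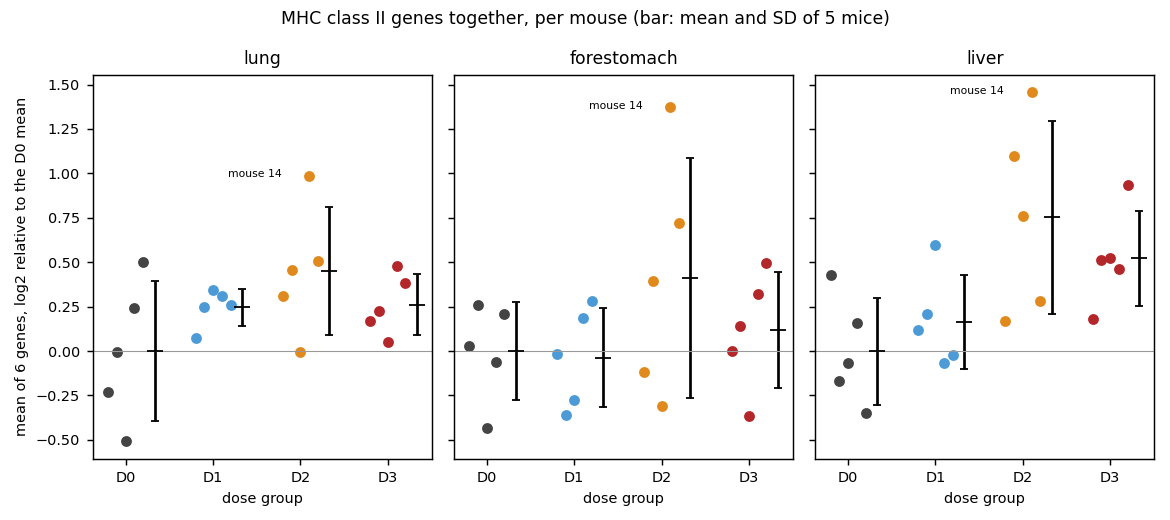
Mean of 6 class II genes in each mouse, as log2 difference from the D0 mean (y axis), by dose group (x axis) and tissue. Points are mice and bars are the mean and SD of 5 mice. Mouse 14 of D2 is the highest point in each tissue, at 0.99 in lung, 1.38 in forestomach and 1.46 in liver.

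Over the 20 mice the class II mean, as deviation from the dose group mean, was compared between organs. The correlation was 0.74 between lung and forestomach, 0.29 between forestomach and liver and 0.20 between lung and liver. Lung and forestomach shared slides, and after removal of slide means the values were 0.36, 0.55 and 0.31.

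Pairs of class II genes were compared as deviations from the dose group means. H2-Aa and H2-DMb1 had a correlation of 0.91 in lung, 0.80 in forestomach and 0.73 in liver. H2-DMa and Cd74 had 0.73, 0.77 and 0.82. Cd74 and H2-Aa had −0.20 in lung and −0.06 in forestomach but 0.68 in liver. After removal of slide means Cd74 had 0.66 with H2-Aa and 0.88 with H2-DMb1 in lung. H2-DMa then had 0.90 with H2-Aa in lung and 0.81 with H2-DMb1 in forestomach, where Cd74 and H2-Aa had 0.37. The average over 15 gene pairs was then 0.61 in lung, 0.58 in forestomach and 0.84 in liver, against 0.43, 0.39 and 0.70 before. These values are over 20 mice that share arrays and slides, and they are descriptive.

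Promoter sequence was examined because some pairs of the genes varied together. Other pairs, such as Cd74 and H2-Aa in lung, did not before removal of slide means. Class II promoters are known for an X box bound by RFX and a Y box bound by NF-Y, which CIITA joins. RefSeq promoters on GRCm38.p6 were at hand for 4 of the 7 genes, 5 promoters in all. The 250 bases before the start were searched on both strands for ACNGATG, a part of the X box, and TGATTGG, a part of the Y box, 2 patterns that need not overlap. Of 32851 promoters 8.31% held the first, 7.23% the second and 0.588% both. H2-DMb1, H2-Eb1 and H2-Aa held both, and the 2 H2-DMa promoters held neither. The 100 bases from 120 to 21 before the start are shown for the 3 genes with a match, since they set the spacing side by side, with the matches in capitals.
H2-DMb1, chr17:34153071-34153170, plus strand: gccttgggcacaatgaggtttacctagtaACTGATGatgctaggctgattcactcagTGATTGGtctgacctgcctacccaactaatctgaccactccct
H2-Eb1, chr17:34305747-34305846, plus strand: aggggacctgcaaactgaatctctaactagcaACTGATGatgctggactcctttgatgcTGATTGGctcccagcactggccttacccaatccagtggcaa
H2-Aa, chr17:34287844-34287943, minus strand: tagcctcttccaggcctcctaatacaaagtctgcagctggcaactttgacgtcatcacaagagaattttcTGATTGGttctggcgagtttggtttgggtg
The matches began 91 and 63 bases before the start in H2-DMb1 and 88 and 61 in H2-Eb1, with 21 and 20 bases between them. In H2-Aa the Y box match began 50 bases before the start, and its only X box match lay on the opposite strand 232 bases before the start, outside the stretch shown. Of the companions, H2-DMb2, H2-Eb2 and H2-Oa held both patterns and H2-Ob held TGATTGG alone. A match of these letters is a description and not a binding site.

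The class II mean was compared with marker genes over the mice of a tissue. In lung the correlation with dendritic cell genes was 0.87, with macrophage genes 0.86, with B cell genes 0.77 and with T cell genes 0.43. In liver macrophage genes came first at 0.70, then B cell genes at 0.66, T cell genes at 0.31 and dendritic cell genes at 0.31. In forestomach dendritic cell genes reached 0.71 and macrophage genes 0.68, whereas B and T cell genes ran opposite at −0.45 and −0.62. After removal of slide means the forestomach values were 0.70 for dendritic cell genes, 0.28 for macrophage genes, 0.44 for B cell genes and 0.27 for T cell genes. The values for B and T cell genes changed sign. Markers of other cells moved with the class II mean as well. In lung alveolar type 2 cell genes had 0.81 and lung genes 0.65, which became 0.41 and 0.065 after removal of slide means, while lymphoid organ genes went from 0.82 to 0.68 and fat cell genes from 0.55 to 0.64. In forestomach skeletal muscle genes had 0.59 and squamous epithelium genes 0.51, which became 0.35 and −0.01, while lung genes went from 0.50 to 0.54 and alveolar type 2 cell genes from 0.49 to 0.50. Liver genes in liver went from −0.15 to −0.62. Some of these values rested on few mice. Without the 2 mice farthest from the median class II value, the liver value of −0.15 became 0.20. That of T cell genes in liver became 0.13. After removal of slide means, dendritic, macrophage, B and T cell genes in lung had 0.83, 0.69, 0.68 and 0.63. With 2 mice left out in the same way, these became 0.61, 0.68, 0.41 and 0.32. Alveolar type 2 cell genes in lung then became 0.077 and lymphoid organ genes 0.37. Companion genes had 0.86 in lung, 0.75 in forestomach and 0.70 in liver. After removal of slide means these were 0.79, 0.58 and 0.69, and the lung value was 0.59 with the 2 farthest mice also left out. The points are 20 mice in each case, and the genes compared share an array.

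The single genes closest to the class II mean were computed in the same way. In lung they were the immunoproteasome subunit Psmb9 at 0.89, Vav1, a signaling protein of blood cells, at 0.89, Ggct at 0.88, Ccdc88b at 0.87 and Plac8 at 0.86. In liver they were the chemokine Ccl6 at 0.82, cathepsin S at 0.82, the complement gene C1qb of macrophages at 0.81, the receptor chain Il2rb at 0.81 and Ifi204 at 0.80. In forestomach they were complement C4b at 0.82, the leukotriene receptor Cysltr1 at 0.81, the class I gene H2-Q8 at 0.78, Sln at 0.77 and Fgfr4 at 0.77. After removal of slide means other genes led, Plac8 at 0.86 in lung, Satb1 at 0.89 in liver and the chemokine Ccl5 at 0.89 in forestomach.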

How the data were processed

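Tissue RNA labeled with Cy5 and Universal Mouse Reference RNA labeled with Cy3 were hybridized together on Agilent arrays by the authors, with the same dye orientation on all 60 arrays. The deposited scanner files hold Feature Extraction output with linear intensity values per spot and, per the file headers, flags for spots above background, while the deposited series matrix holds the authors' log2 ratios, LOWESS normalized without background subtraction. Here median intensity values without background subtraction were loess normalized within each array in limma 3.58.1 under R 4.3.3, flagged outlier spots (0.46%) and control spots were left out, and spots of a probe were averaged. The resulting ratios had correlations of 0.992 to 0.999 with the deposited log2 ratios of the same arrays. RefSeq accessions gave symbols to 26413 of 55681 probes (47.4%).

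The tested probes had a Cy5 signal flagged as well above background on 5 or more of the 20 arrays of a tissue. Each dose was compared with vehicle controls within a tissue with lmFit and eBayes, two-sided, with Benjamini-Hochberg adjustment over all tested probes, and tissues were compared in D0 in a model of 12 groups over all 60 arrays. Calls required an adjusted p no higher than 0.05 and a change of 1.5-fold or more, and for slopes the adjusted p alone. Standard errors and 95% intervals are those of limma. The fits were checked on simulated data. The number of arrays limits the precision, and the replicates are separate mice. The same mouse number marks the same animal in each tissue, and mouse number as a replicate block left the counts of called class II probes at 7, 7 and 5 for lung against liver, lung against forestomach and forestomach against liver. In these fits 44.6, 33.6 and 39.5% of all probes were called in either direction.

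Named were all member probes, list genes that were called or had the largest and smallest differences, and the 5 genes with the highest correlation with the members' mean in each tissue. For these 5 genes each member was scaled to unit standard deviation before averaging. The members, the lists of companions, regulators, interferon gamma, class I and cell type genes, and the tests were chosen with earlier results of these data known. Each list gene was represented by its brightest probe in Cy5. Alternatives were other background corrections and signals, the deposited ratios, other filters and variance models, slide and mouse as blocks, residual shuffling with 100 shufflings, and each mouse left out in turn. Cy5 alone, quantile normalization of both channels, and omission of the 4 arrays with markers of another tissue (lung of mice 1 and 20, forestomach of mice 2 and 5) or of all 9 above 2 log2 units were chosen after seeing the data. Figures were drawn with matplotlib 3.10.9. Promoter sequences are from RefSeq.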

Additional observations from a re-analysis of the deposited data

Results flagged for a closer look

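In 84 groups of 5 mice, one for each tested probe, tissue and dose, the highest or lowest mouse was checked for a gap to its nearest neighbor that is wide for the range of its group (Dixon's test, 95% level). Chance alone marks about 1 group in 20, and 5 were marked. Mouse 14 gave 2 of them, both in D2 forestomach, Cd74 at 1.63 with 0.40 the nearest of its group and H2-DMa at 0.49 with −0.35 the nearest. H2-DMb1 was low in the liver of D0 mouse 5, at −0.57 with −0.21 nearest, and high in the forestomach of D1 mouse 10, at 1.10 with 0.50 nearest. Cd74 was low in the lung of D3 mouse 20, at 3.63 with 3.86 nearest, an array that was also high in liver genes, by 2.72 above the D0 mean.

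The estimated Cd74 change at D3 was above 0 in lung and liver and below 0 in forestomach. All 5 D3 mice were above the D0 mean in lung and in liver and 0 of 5 in forestomach. The forestomach count depended on single D0 mice. Without mouse 1 or mouse 3 it was 1 of 5. Without mouse 2, whose array was high in lung genes, the forestomach change went from −0.34 to −0.17 and 2 of 5 D3 mice were above the D0 mean. The difference in change was 0.60 between lung and forestomach (SE 0.37, adjusted p = 1.00 in limma) and −1.03 between forestomach and liver (SE 0.37, adjusted p = 1.00), so neither passed the correction over all probes.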

How the results depend on the processing

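No class II probe was called for dose, for a slope or for a tissue difference of the D3 change under any alternative run. All 7 probes were called between lung and liver throughout, and 7 between lung and forestomach except with processed signals (4). The 5 called between forestomach and liver became 4 with processed signals, the deposited ratios, or the 4 or all 9 arrays with markers of another tissue left out, 3 with the mean of the 4 doses and 3 to 5 with single mice left out. Among them H2-DMa was no longer called at 0.64, 0.50 and 0.45 with processed signals, deposited ratios and the mean of doses, nor with both channels quantile normalized (0.51) or Cy5 alone (0.38), where the first H2-Ab1 probe was called instead. Mouse number as a replicate block, which pairs the tissues of an animal, gave 7, 7 and 5. Of the correlations with B, T, dendritic cell and macrophage genes, those with slide removed that differed by more than the jackknife error over mice were macrophages in lung (0.69) and in forestomach B cells (0.44), T cells (0.27) and macrophages (0.28). Other lists were not held to that error. The mean D3 change over single mice left out ran from 0.13 to 0.39 in lung, 0.42 to 0.63 in liver and 0.0088 to 0.24 in forestomach. The forestomach mean of 0.12 became −0.061 with processed signals, −0.015 with the filter on all arrays (3 genes left) and 0.27 or 0.22 without the 4 or 9 arrays, and the lung mean of 0.26 became 0.17 without the 4 or 9.

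Signs turned for forestomach changes, the largest being H2-Aa at 0.57 at D3, for H2-Aa in lung and for H2-Aa between forestomach and liver, none of them called. Processed signals gave −0.0086 for H2-DMa at D2 and, at D3, −0.0016 for H2-DMb1, 0.094 for H2-DMa, −0.056 for H2-Aa, −0.0085 for H2-Ab1 probe 1 and −0.069 for H2-Eb1. Cy5 alone gave 0.074 for H2-DMa at D3. Quantile normalization of both channels gave −0.062 for H2-DMa and −0.13 for H2-Ab1 probe 2 at D2, and −0.031 for H2-Ab1 probe 1 and −0.091 for H2-Eb1 at D3. Without the 4 arrays with markers of another tissue H2-DMa was −0.046 at D2 and H2-Ab1 probe 2 was 0.17 at D3, and 0.14 without the 9. With each mouse left out the ranges were −0.15 to 0.12 for H2-DMa and −0.092 to 0.33 for H2-Ab1 probe 2 at D2, and −0.16 to 0.071 for H2-DMa, −0.025 to 0.27 for H2-Ab1 probe 1 and −0.17 to 0.058 for H2-Ab1 probe 2 at D3. H2-Aa ran from −0.11 to 0.67 at D3 in lung and from −0.014 to 0.95 between forestomach and liver, negative without mouse 5. The causes were not tested. Quantile normalization of average signals leaves log2 ratios as they are, so it changed none.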
